A study of Mus musculus with 32 samples.

Results

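Transcript levels of 9 genes for transforming growth factor beta (TGF-beta) ligands, their accessory receptor, matricellular CCN proteins and a related nuclear protein were followed in cells sorted from injured mouse muscle. The genes were Tgfb1, Tgfb2, Tgfb3, Tgfbr3, Ccn1, Ccn2, Ccn4, Ccn5 and Ankrd1. They were chosen by name, with no measured value in the rule but with earlier results of these data known. All 9 were found once each among the 55487 genes measured. All 9 passed the filter on low counts in every comparison. In mm10 they lie on the plus strand at chr7:25687002-25705077 (Tgfb1), chr10:24595442-24598683 (Ccn2), chr15:66891320-66923201 (Ccn4) and chr2:163820861-163833146 (Ccn5), and on the minus strand at chr1:186622792-186705989 (Tgfb2), chr12:86056745-86079041 (Tgfb3), chr5:107106570-107289629 (Tgfbr3), chr3:145646976-145649981 (Ccn1) and chr19:36111961-36120099 (Ankrd1). Counts are per gene, so isoforms are not told apart.

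TGF-beta is secreted in a latent complex that is held in the extracellular matrix, and integrins and proteases release the active ligand. The active ligand signals through the type I and type II receptors to SMAD transcription factors, which drive matrix genes. CCN proteins are secreted into the matrix and bind integrins and growth factors. Ccn1, Ccn2 and Ankrd1 are also widely used target genes of YAP and TAZ, coactivators that respond to mechanical tension and act through TEAD factors. In muscle, TGF-beta restrains the differentiation of myogenic cells and drives fibrosis, and fibro-adipogenic progenitors (FAPs) are the main matrix-producing cells after injury.

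The libraries came from wild-type (WT) male C57BL/6J mice aged 12 weeks. The supraspinatus, a muscle of the rotator cuff, was injured in every group with cardiotoxin, a venom protein under which muscle fibres die and then regenerate. BAT muscles then received interscapular brown adipose tissue (BAT) from donors aged 3 weeks, and control muscles had the injury alone, so no uninjured muscle and no sham graft enters the comparisons. Both muscles of a pair came from the same mouse. Cells lacking CD45 and CD31 and carrying Sca1 were sorted into satellite cells, the muscle stem cells, by the presence of integrin alpha 7, and into FAPs by its absence, per the labels. The 8 groups of 4 libraries each were satellite cells with BAT at day 7, satellite cells of control muscle at day 7, the same pair at day 3, and the corresponding 4 groups of FAPs. Day 7 and day 3 libraries came from different mice, 4 per day, and from separate deposited tables, so day and table cannot be told apart. In bulk samples such as these, fewer cells of a type and less RNA per cell cannot be told apart either.

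Library totals ranged from 19776809 to 46378988 counts, and levels are given as CPM, counts per 1000000 counts of a library. A count of 0 allows up to 3 counts, which is 0.152 CPM at the lowest library total and 0.065 CPM at the highest, for counting error only. The sort could be read in the transcripts: summed CPM of 10 satellite cell markers was 2178 to 5086 in satellite cells and 433 to 1648 in FAPs, and that of 10 FAP markers was 181 to 1660 in satellite cells and 7468 to 38408 in FAPs. Ly6a, which encodes Sca1, had group means of 5.95 to 14.6 CPM in satellite cells and 593 to 826 CPM in FAPs, although the labels give Sca1 as present on both. Of the macrophage and monocyte markers, 16 genes, the sum was 5190 CPM in FAPs with BAT at day 3 (replicate 1), 2070 in satellite cells with BAT at day 3 (replicate 4) and 1828 in satellite cells of control muscle at day 3 (replicate 3), against 5.27 to 189 in the other 29 libraries. Replicate 3 at day 7, which is 1 mouse in all 4 groups, had 163 to 355 CPM of Xist and 0 of the Y-linked Ddx3y, while all other mice had at most 0.161 CPM of Xist and 29.1 to 108 CPM of Ddx3y, so this mouse goes against the male label. Without it, 39 of the 40 calls on members that include day 7 were kept. Without the libraries rich in macrophage transcripts, 42 of 43 calls that include those groups were kept. The calls lost or gained are given beside the results.

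Promoter sequence was available from RefSeq (GRCm38.p6) for 4 of the 9 genes, as windows of 250 bases before a RefSeq gene start. For Ankrd1 that start lies inside the gene span given above. The Ankrd1 window, and both stretches shown from it, thus fall within the annotated gene and not before it. The windows of Ccn1 and Tgfb2 are printed because both genes rose with day in satellite cells and the windows hold different motifs. In the Ccn1 window, on the minus strand at chr3:145649986-145650235, capitals mark CATTCC, the reverse complement of the TEAD core GGAATG, and a TATAAA box. In the Tgfb2 window, on the minus strand at chr1:186705990-186706239, capitals mark CAGAC, part of a SMAD binding element, at 2 places and a TATAAA box. For Ankrd1, on the minus strand, the pair of GGAATG matches is shown with the bases around each, at chr19:36120037-36120066 and chr19:36119950-36119979.
Ccn1: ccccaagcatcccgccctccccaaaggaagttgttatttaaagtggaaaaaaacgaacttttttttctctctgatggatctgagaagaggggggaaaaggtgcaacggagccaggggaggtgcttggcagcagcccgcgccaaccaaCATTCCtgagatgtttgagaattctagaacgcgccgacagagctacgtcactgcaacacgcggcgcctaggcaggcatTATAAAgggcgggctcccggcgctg
Tgfb2: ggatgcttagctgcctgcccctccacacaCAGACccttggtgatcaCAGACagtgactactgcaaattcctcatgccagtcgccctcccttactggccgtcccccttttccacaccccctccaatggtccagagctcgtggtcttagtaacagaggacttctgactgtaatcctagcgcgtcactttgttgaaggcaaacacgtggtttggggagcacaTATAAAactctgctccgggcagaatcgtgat
Ankrd1, first match: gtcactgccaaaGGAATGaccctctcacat
Ankrd1, second match: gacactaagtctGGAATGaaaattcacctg
Counting both strands and letting motifs overlap, GGAATG was in 12.6% of the 32851 promoter windows of this length, CAGAC in 42.2% and TATAAA in 12.4%. The part of a SMAD binding element marked for Tgfb2 was also in the Ankrd1 window, on both strands, and is not marked there. Its match on the other strand lies inside the second stretch shown for Ankrd1. The SMAD and TEAD letters thus do not separate these genes, since Ankrd1 had both. Of the 4 windows, that of Tgfb1 held none of these motifs. The matches describe the letters of these windows and nothing about binding.

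The genes split by cell type, and most of them moved with day in satellite cells far more than in FAPs. Of the ligands, receptor and CCN genes, all 8 were lower in satellite cells than in FAPs at day 3, and Ankrd1 was higher. By day 7 the satellite cell levels of Tgfb1 and Tgfb2 lay among the FAP levels, Tgfb3 and Tgfbr3 had come within a few fold, and Ankrd1 was lower than at day 3. For BAT against control none of the 9 passed the test used, in any cell type or day. The plot of every library shows these steps.

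**Figure D1:**
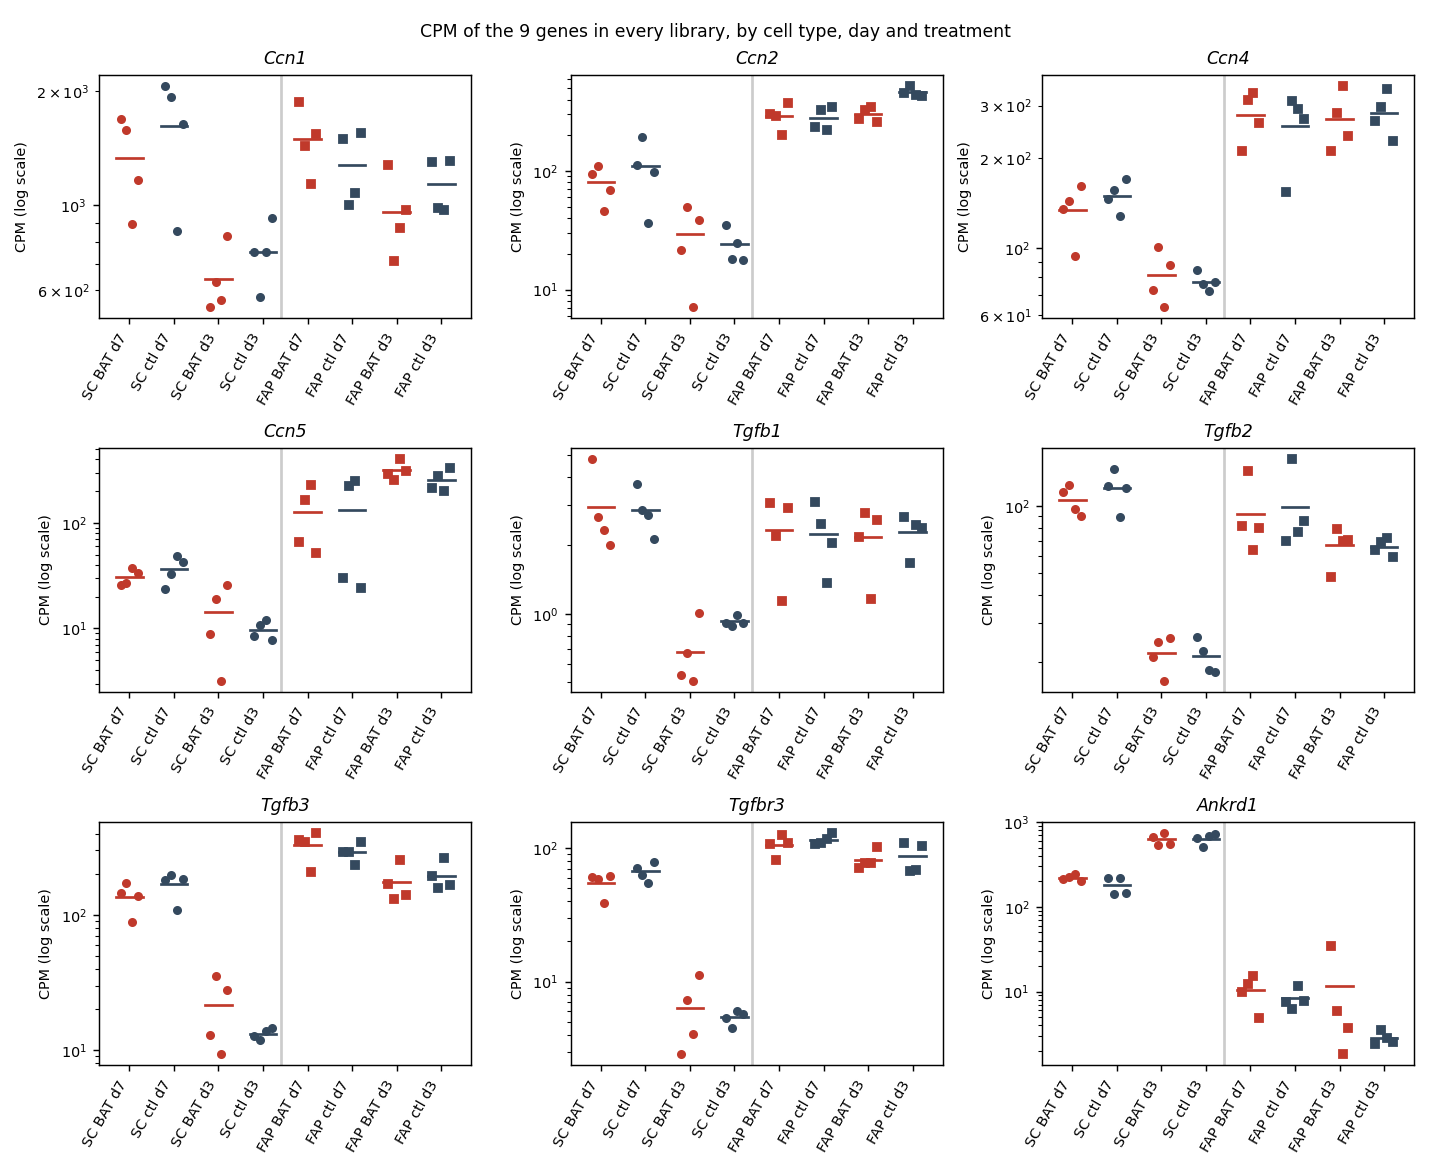
Each panel plots the CPM of 1 gene (vertical axis, log scale) in the 32 libraries, with satellite cells (SC, circles) left of FAPs (squares), day 7 left of day 3, and BAT (red) left of control (ctl, dark blue). Points are libraries and bars are group means (n = 4); in satellite cells Tgfb3 averaged 168 CPM at day 7 and 13.3 CPM at day 3 in control muscle, while Ankrd1 averaged 181 and 638 CPM.

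Changes were tested with edgeR's quasi-likelihood test at a Benjamini-Hochberg adjusted p under 0.05 over all genes tested. Its scaling (TMM) differs from plain CPM. For satellite cells against FAPs, the fitted log2 changes lay below the log2 ratios of mean CPM. This median shift at day 7 was 0.41 in control muscle and 0.44 with BAT, and at day 3 it was 0.12 and 0.19. For day 7 against day 3 the shift, in the same direction, was 0.36 in control satellite cells and 0.26 in BAT satellite cells. In the other comparisons between groups the shift was at most 0.06. Levels below are plain CPM and changes are fitted log2 values with their SE.

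Of day 7 against day 3 in control satellite cells, 9 of 9 members passed the test, 8 higher and Ankrd1 lower, where 59.4% of all genes passed (29.7% higher and 29.8% lower). With BAT, 6 of 9 passed in satellite cells, 5 higher and Ankrd1 lower, against 52.9% of all genes (28.5% higher and 24.4% lower). In control FAPs 3 of 9 passed, 2 higher and 1 lower, against 23% of all genes (11.5% and 11.4%), and in BAT FAPs 2 of 9 passed, both higher, against 22.9% (10.3% higher and 12.6% lower). Groups did not overlap for 8 of 9 members in control satellite cells (55% of all genes), 6 of 9 in BAT satellite cells (48.6%), 2 of 9 in control FAPs (26.2%) and 1 of 9 in BAT FAPs (25.2%). The median change of the members was 1.56 in control satellite cells (all genes 0.034), 1.20 in BAT satellite cells (all genes 0.107), 0.23 in control FAPs (all genes 0.092) and 0.12 in BAT FAPs (all genes 0.039).

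**Figure D2:**
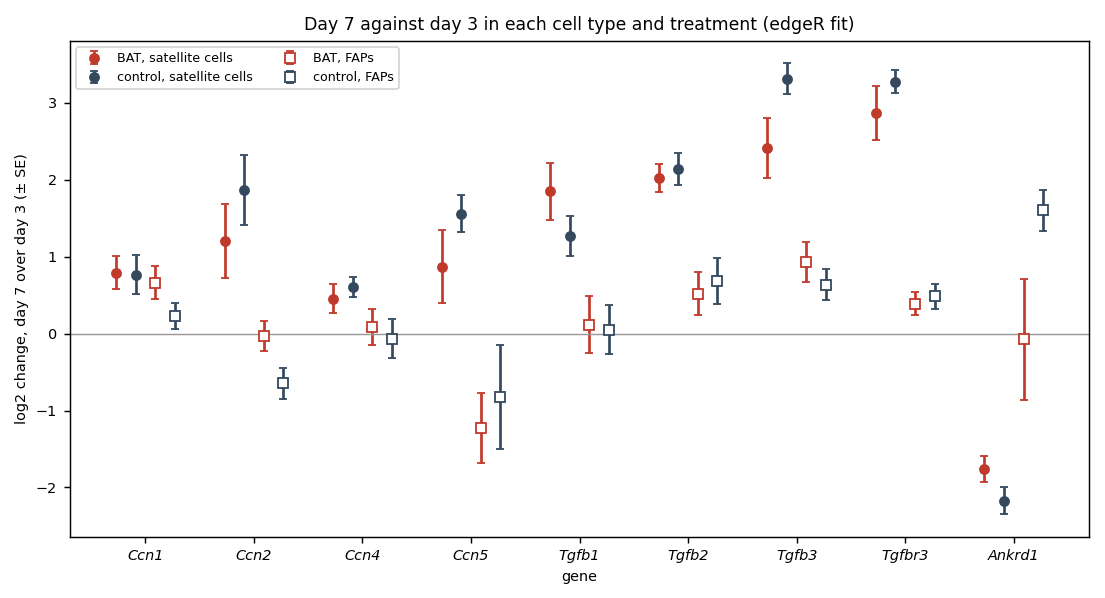
For each gene (horizontal axis), points give the fitted log2 change of day 7 over day 3 (vertical axis) and bars its SE, with satellite cells as filled circles and FAPs as open squares, BAT in red and control in dark blue. In satellite cells Tgfb3 and Tgfbr3 had the highest values (3.31 and 3.27 in control muscle) and Ankrd1 the lowest (-2.17), while in FAPs Ankrd1 was higher at day 7 in control muscle (1.60).

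Tgfb3, a ligand of the TGF-beta family, rose furthest of the ligands. In satellite cells of control muscle it had 180, 198, 109 and 186 CPM at day 7, against 12.8, 11.8, 13.9 and 14.5 CPM at day 3. With BAT it had 146, 171, 89.3 and 138 CPM at day 7, against 13.0, 35.6, 9.30 and 27.9 CPM at day 3. Neither pair of groups overlapped, and the mouse of replicate 3 was the lowest at day 7 in both. The change was 3.31 ± 0.20 in control satellite cells (9.94-fold, adjusted p = 2.95e-06) and 2.41 ± 0.39 in BAT satellite cells (5.32-fold, adjusted p = 0.000545). In FAPs Tgfb3 averaged 291 ± 44.3 CPM at day 7 and 195 ± 47.4 CPM at day 3 in control muscle, and 330 ± 84.7 and 175 ± 56.4 CPM with BAT (SD, n = 4 each). These groups overlapped, and the FAP changes of 0.64 ± 0.20 in control muscle (adjusted p = 0.0408) and 0.93 ± 0.26 with BAT (adjusted p = 0.0289) rested on few libraries. In control FAPs the call was lost without replicate 1, 2 or 4 of either day (log2 changes 0.54 to 0.65, adjusted p 0.0748 to 0.127) and without the filter on low counts (0.63, adjusted p = 0.0501). With BAT it was lost without the same replicates of either day (0.82 to 0.92, adjusted p 0.0512 to 0.0828), and day 3 replicate 1 is the library rich in macrophage transcripts.

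Tgfb2, the ligand that depends most on the accessory receptor encoded by Tgfbr3, also rose in satellite cells. Its levels in control satellite cells were 123, 147, 89.3 and 120 CPM at day 7, against 26.0, 22.4, 18.4 and 18.1 CPM at day 3. In BAT satellite cells they were 116, 124, 96.6 and 90.0 CPM at day 7, against 21.1, 24.7, 16.5 and 25.6 CPM at day 3. Every day 7 library was above every day 3 library. The changes were 2.14 ± 0.21 in control (4.40-fold, adjusted p = 2.64e-05) and 2.02 ± 0.18 in BAT satellite cells (4.05-fold, adjusted p = 2.92e-05). FAPs had 69.7 to 162 CPM at day 7 and 59.1 to 71.9 CPM at day 3 in control muscle, and 63.8 to 143 CPM and 48.2 to 78.5 CPM with BAT. The mouse of replicate 2 was highest at day 7 in both muscles (143 CPM with BAT and 162 CPM in control), and neither FAP change passed (0.68 ± 0.30, adjusted p = 0.119, in control and 0.52 ± 0.28, adjusted p = 0.209, with BAT).

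Tgfb1, the most studied ligand of fibrosis, had 0.506 to 4.80 CPM over the 32 libraries. Whether the deposited quantification lost reads of this gene was not tested, which limits how its level can be set against those of the other ligands. Control satellite cells had 3.72, 2.87, 2.73 and 2.13 CPM at day 7, against 0.909, 0.884, 0.991 and 0.914 CPM at day 3. BAT satellite cells had 4.80, 2.67, 2.35 and 2.00 CPM at day 7, against 0.537, 0.669, 0.506 and 1.01 CPM at day 3. The groups did not overlap, and the changes were 1.27 ± 0.26 in control (adjusted p = 0.00192) and 1.85 ± 0.37 in BAT satellite cells (adjusted p = 0.00201). FAP means lay between 2.18 and 2.33 CPM in all 4 groups, and their changes with day did not pass (0.05 ± 0.32 in control and 0.12 ± 0.37 with BAT). The library with the most macrophage transcripts, FAPs with BAT at day 3 (replicate 1), had 2.18 CPM of Tgfb1, within the 1.16 to 2.78 CPM of its group. Per kilobase of the principal transcript, control FAPs at day 7 averaged 86.1 CPM of Tgfb3, 19.2 of Tgfb2 and 1.04 of Tgfb1, and control satellite cells at day 7 averaged 49.6, 23.4 and 1.31.

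Tgfbr3 encodes betaglycan, a co-receptor without kinase activity that presents TGF-beta ligands to the signalling receptors. In control satellite cells its levels were 70.2, 63.1, 54.9 and 79.0 CPM at day 7, against 5.38, 4.48, 6.06 and 5.71 CPM at day 3. With BAT they were 60.8, 58.3, 38.9 and 61.9 CPM at day 7, against 2.86, 7.33, 4.04 and 11.2 CPM at day 3. The day groups were far apart, with changes of 3.27 ± 0.15 in control (9.67-fold, adjusted p = 8.24e-07) and 2.87 ± 0.36 in BAT satellite cells (7.29-fold, adjusted p = 0.000138). FAPs had 107 to 130 CPM at day 7 and 66.9 to 109 CPM at day 3 in control muscle, and 81.0 to 125 and 71.2 to 102 CPM with BAT. The FAP changes of 0.48 ± 0.16 (adjusted p = 0.0535) in control and 0.39 ± 0.15 (adjusted p = 0.0867) with BAT missed the threshold, although control FAPs passed with DESeq2 (0.47, adjusted p = 0.033) and without day 3 replicate 1 (0.58, adjusted p = 0.0403).

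Of the CCN genes, Ccn1 had the highest level per kilobase in every group, at 318 to 803 CPM per kilobase. Control satellite cells had 2063, 1926, 854 and 1639 CPM at day 7, against 756, 575, 753 and 925 CPM at day 3. With BAT they had 1687, 1575, 891 and 1168 CPM at day 7, against 540, 630, 566 and 833 CPM at day 3. In control muscle the mouse of replicate 3 fell among the day 3 values and the other day 7 libraries were above them, and with BAT the groups did not overlap. Ccn1 rose by 0.76 ± 0.25 in control (adjusted p = 0.023) and 0.79 ± 0.21 in BAT satellite cells (adjusted p = 0.009), the first call being lost without day 3 replicate 2 (0.67, adjusted p = 0.0686). In FAPs it averaged 1494 ± 300 CPM at day 7 and 960 ± 238 CPM at day 3 with BAT, a change of 0.66 ± 0.21 (adjusted p = 0.0486) that was lost without replicate 2 or 4 of either day, day 3 replicate 3 or day 7 replicate 1 (0.54 to 0.68, adjusted p 0.0875 to 0.135), and without the filter on low counts (0.69, adjusted p = 0.068). Control FAPs averaged 1280 ± 279 CPM at day 7 and 1140 ± 186 CPM at day 3, and their change of 0.23 ± 0.17 did not pass.

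Ccn2, the classic TGF-beta and YAP target known as connective tissue growth factor, moved in opposite directions in the 2 cell types of control muscle. Control satellite cells had 112, 195, 36.5 and 98.1 CPM at day 7, against 35.2, 18.1, 24.8 and 17.8 CPM at day 3, with replicate 3 of day 7 just above the highest day 3 library. Control FAPs had 234, 326, 221 and 343 CPM at day 7, against 454, 524, 434 and 428 CPM at day 3, with every day 7 library below every day 3 library. Ccn2 rose by 1.86 ± 0.45 in control satellite cells (3.64-fold, adjusted p = 0.00503), and it fell by 0.65 ± 0.20 in control FAPs (1.57-fold lower, adjusted p = 0.0417). The FAP call was lost without any 1 library other than day 7 replicate 2 (log2 changes -0.71 to -0.53, adjusted p 0.0614 to 0.131). With BAT, satellite cells had 46.3 to 111 CPM at day 7 and 7.08 to 49.2 CPM at day 3, and their change of 1.20 ± 0.48 (adjusted p = 0.0546) passed without day 3 replicate 2 (1.55, adjusted p = 0.0268), without day 7 replicate 3 (1.38, adjusted p = 0.0414) and without the filter on low counts (1.17, adjusted p = 0.0313). BAT FAPs had 202 to 373 CPM at day 7 and 260 to 349 CPM at day 3, a change of -0.03 ± 0.19.

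Ccn4, also named Wisp1, was higher at day 7 in control satellite cells, at 128 to 170 CPM against 71.9 to 84.5 CPM at day 3 (0.60 ± 0.13, adjusted p = 0.00273). In BAT satellite cells it had 94.7 to 162 CPM at day 7 and 63.6 to 101 CPM at day 3, a change of 0.45 ± 0.19 (adjusted p = 0.0686) that passed without day 7 replicate 3 (0.57, adjusted p = 0.0207). FAP means were 257 to 283 CPM in all 4 groups. Ccn5, the CCN protein that lacks the C-terminal domain of the others, had 23.8, 32.5, 48.5 and 42.7 CPM at day 7 in control satellite cells, against 8.41, 10.7, 12.1 and 7.72 CPM at day 3. That change of 1.56 ± 0.24 passed (adjusted p = 0.000377), and the change of 0.87 ± 0.47 in BAT satellite cells did not (adjusted p = 0.143).

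In FAPs at day 7, Ccn5 differed widely between mice. FAPs with BAT had 65.8, 165, 230 and 52.0 CPM and control FAPs of the same mice had 29.9, 224, 248 and 24.3 CPM. Replicates 1 and 4 were low and replicates 2 and 3 were high in both muscles, whereas at day 3 the FAP libraries spanned 256 to 402 CPM with BAT and 201 to 333 CPM in control. The day changes of -1.22 ± 0.45 with BAT (adjusted p = 0.0769) and -0.83 ± 0.68 in control FAPs (adjusted p = 0.4) did not pass, though BAT FAPs passed with DESeq2 (-1.22, adjusted p = 0.0175) and without day 7 replicate 3 (-1.65, adjusted p = 0.0179).

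Ankrd1 encodes a muscle ankyrin repeat protein of the nucleus and sarcomere, and it ran against the other members. Control satellite cells had 218, 141, 220 and 145 CPM at day 7, against 644, 509, 683 and 714 CPM at day 3. BAT satellite cells had 212, 227, 242 and 203 CPM at day 7, against 657, 531, 748 and 556 CPM at day 3. It fell by 2.17 ± 0.17 in control (4.51-fold lower, adjusted p = 9.04e-06), and it fell by 1.76 ± 0.16 in BAT satellite cells (3.38-fold lower, adjusted p = 3.24e-05), with no overlap. Control FAPs had 7.47, 6.19, 11.8 and 7.78 CPM at day 7, against 2.38, 3.53, 2.82 and 2.58 CPM at day 3, and Ankrd1 rose there by 1.60 ± 0.26 (adjusted p = 0.00361). In these FAPs the mature myofibre markers summed to 50.8 to 154 CPM at day 7 and 2.50 to 4.61 CPM at day 3, with 6 of 7 tested genes higher, and their part in the Ankrd1 change was not tested. BAT FAPs had 9.84, 12.3, 15.2 and 4.93 CPM at day 7, against 34.7, 5.85, 1.82 and 3.72 CPM at day 3. The 34.7 CPM belongs to replicate 1, the library rich in macrophage transcripts, which also had a myofibre marker sum of 43.3 CPM against 2.48 to 3.78 in the rest of its group. The change in BAT FAPs was -0.08 ± 0.79 with that library and 1.53 without it (adjusted p = 0.0462), and the part of macrophage or myofibre transcripts in its value was not tested.

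Markers of other cells moved with day too. In satellite cells the macrophage and monocyte list was lower at day 7, in 10 of 11 tested genes in control and 8 of 10 with BAT, and its sum was 5.27 to 87.8 CPM at day 7 and 8.97 to 2070 CPM at day 3. Of the endothelial list 4 of 7 tested genes were higher in control, with 1 lower, and 4 of 9 were higher with BAT. The pericyte and smooth muscle list summed to 2695 to 4744 CPM at day 7 and 620 to 1126 CPM at day 3, and 9 of 10 of its genes passed as higher in control and in BAT satellite cells. Among them Rgs5 averaged 546 ± 357 CPM at day 7 and 9.23 ± 5.38 CPM at day 3 in control satellite cells. The tenocyte list summed to 650 to 2016 CPM at day 7 and 85.5 to 885 CPM at day 3. Of its 10 genes 8 were higher and 1 lower in control, and 2 were higher and 1 lower in BAT satellite cells. The FAP list summed to 745 to 1660 CPM at day 7 and 181 to 719 CPM at day 3, with 2 of 10 genes higher in control and 1 of 9 tested in BAT satellite cells. Mature myofibre markers were higher too, 9 of 10 in control satellite cells and 8 of 9 tested with BAT. Pdgfra, a defining FAP marker, averaged 2.96 ± 2.74 CPM at day 7 and 3.92 ± 6.66 CPM at day 3 in control satellite cells. Single control libraries at day 3 had 0.0705% to 4.29% of the mean FAP level of Pdgfra. The median change of the whole FAP list was 1.49 in control satellite cells and 0.14 in BAT satellite cells. In control FAPs 7 of 10 tenocyte, 6 of 10 FAP, 3 of 9 tested pericyte and smooth muscle, 2 of 6 tested endothelial and 5 of 5 erythroid markers were higher at day 7, and none of the macrophage list passed. In BAT FAPs 5 of 10 tenocyte, 6 of 10 FAP, 3 of 9 pericyte and smooth muscle and 2 of 4 tested myofibre markers were higher, no erythroid marker passed, and 8 of 14 macrophage markers were lower. The part of these cells in the changes with day was not tested.

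The comparison of cell types asks where each gene is expressed. In control muscle at day 7, 5 of 9 members passed for satellite cells against FAPs, where 45.1% of all genes passed (22.5% higher and 22.6% lower), and at day 3, 9 of 9 passed, against 71.7% (35.8% and 35.9%). With BAT, 7 of 9 passed at day 7, against 49.9% of all genes (24.5% and 25.3%), and 9 of 9 at day 3, against 66.5% (31.1% and 35.4%). Ankrd1 was higher in satellite cells in all 4 comparisons and every other passing member was lower. In control muscle the groups did not overlap for 4 of 9 members at day 7 (45.7% of all genes) and 9 of 9 at day 3 (64.5%), and with BAT for 6 of 9 (47.5%) and 8 of 9 (57.5%). The members' median changes were -1.15 at day 7 and -1.97 at day 3 in control muscle (all genes 0.054 and 0.030), and -1.38 and -1.91 with BAT (all genes 0.031 and -0.035).

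Ccn5 and Ccn2 were the members furthest below their FAP levels at day 3 in control muscle. In control muscle the change was -4.82 ± 0.17 for Ccn5 (28.3-fold lower, adjusted p = 1.96e-06), -4.43 ± 0.15 for Ccn2 (21.6-fold lower), -4.10 ± 0.11 for Tgfbr3 (17.1-fold lower) and -3.98 ± 0.17 for Tgfb3 (15.7-fold lower). Ccn4, Tgfb2, Tgfb1 and Ccn1 were lower by smaller amounts (-1.97, -1.76, -1.41 and -0.72). Ankrd1 was higher by 7.70 ± 0.20, a 207-fold difference (adjusted p = 1.21e-06). With BAT at day 3 the changes were -4.95 for Ccn5, -3.84 for Ccn2, -4.02 for Tgfbr3 and -3.36 for Tgfb3. Ccn4, Tgfb2, Tgfb1 and Ccn1 had -1.91, -1.79, -1.81 and -0.76 there, and Ankrd1 was higher by 6.53 ± 0.82, or by 7.37 without the macrophage-rich pair.

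At day 7 these differences were smaller. In control muscle the changes were -1.96 ± 0.29 for Ccn2 (3.90-fold lower in satellite cells), -1.24 ± 0.13 for Tgfb3, -1.22 ± 0.13 for Tgfbr3 and -1.15 ± 0.20 for Ccn4, and Ankrd1 was higher by 4.03 ± 0.16 (16.3-fold). Changes of Tgfb1 (-0.05 ± 0.30), Tgfb2 (-0.07 ± 0.18) and Ccn1 (-0.13 ± 0.20) did not pass. By plain CPM all 3 had higher means in satellite cells (log2 ratios 0.35, 0.28 and 0.34), so that no direction can be given for them. Ccn5 (-1.62 ± 0.64, adjusted p = 0.0761) passed without replicate 4 (-2.35, adjusted p = 0.0182), without the low-count filter (-1.59, adjusted p = 0.0158) and without the mouse block (-2.33, adjusted p = 0.0312). With BAT the changes were -2.35 ± 0.16 for Ccn2, -1.71 ± 0.11 for Tgfb3, -1.38 ± 0.18 for Tgfbr3, -1.51 ± 0.21 for Ccn4 and 4.03 ± 0.25 for Ankrd1, all passing. Tgfb1 (-0.09 ± 0.33) and Tgfb2 (-0.17 ± 0.17) did not pass, and their log2 ratios by plain CPM were 0.34 and 0.22. With BAT, Ccn5 (-2.25 ± 0.36) and Ccn1 (-0.63 ± 0.12, adjusted p = 0.00359) passed as well. The Ccn1 call was lost without the mouse block (-0.61, adjusted p = 0.0616), its log2 ratio by plain CPM was -0.17, and the groups overlapped, at 891 to 1687 CPM in satellite cells and 1140 to 1865 CPM in FAPs.

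Satellite cell levels of the members were also read as a percent of the FAP level, beside FAP markers. The FAP marker sum in satellite cells was 5.50% of its FAP level in control muscle at day 7 and 2.95% at day 3, and Pdgfra was 1.01% and 1.21%. The tenocyte marker sum averaged 1636 CPM in control satellite cells and 7883 CPM in control FAPs at day 7. At day 3 these tenocyte sums averaged 138 and 3851 CPM. At day 7 in control muscle Tgfb3 reached 57.6% of the FAP level, Tgfbr3 57.8%, Ccn2 39.3% and Ccn5 28.0%. At day 3 the same genes were at 6.79%, 6.21%, 5.20% and 3.80%, with Ccn5 at 3.02% to 4.74% in single libraries and the FAP marker sum at 2.06% to 5.17%. Satellite cell Ccn5 at day 3 thus lay within the range of the FAP marker sum. Ccn2 (3.86% to 7.65%) and Tgfbr3 (5.15% to 6.96%) overlapped that range, and Tgfb3 (6.06% to 7.44%) lay above it. Single FAP markers had means of 6.42% (Gsn) and 6.18% (Cd34) there, and the rest 0.671% to 2.00%. With BAT at day 3, replicates 2 and 4 had FAP marker sums of 614 and 719 CPM against 215 and 181 CPM in replicates 1 and 3, tenocyte sums of 885 and 366 CPM against 120 and 113 CPM, and the higher levels of Ccn2, Ccn5, Tgfb3 and Tgfbr3 in that group. The part of FAP or tenocyte transcripts in the satellite cell levels of the members was not tested on either day.

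**Figure D3:**
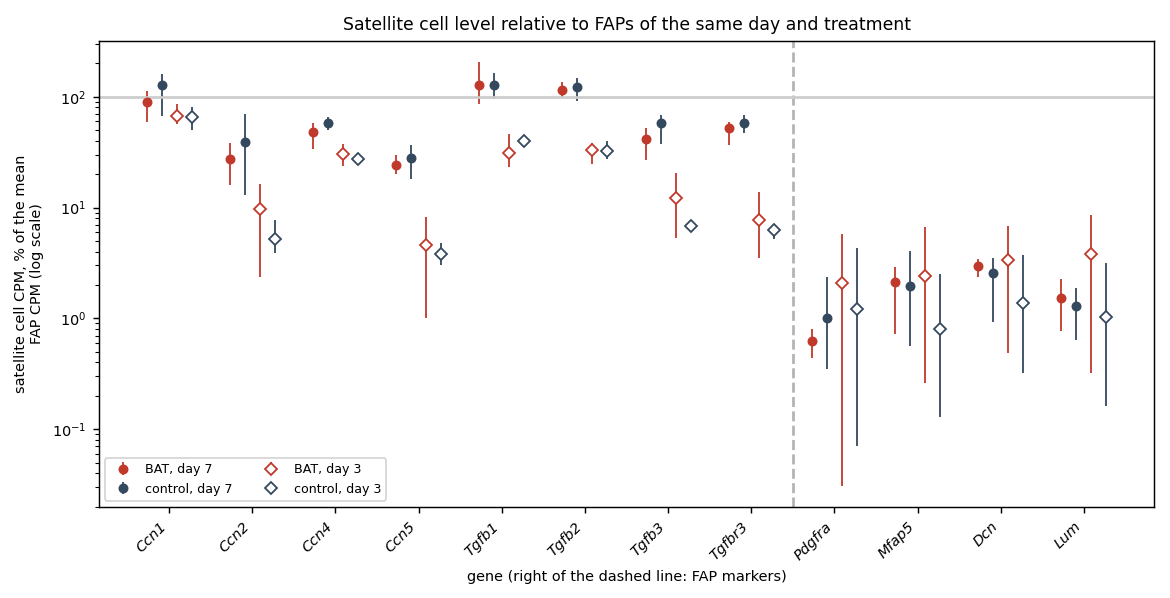
Points give the mean satellite cell CPM as a percent of the mean FAP CPM of the same day and treatment (vertical axis, log scale), and bars run from the lowest to the highest satellite cell library (n = 4). Filled circles are day 7, open diamonds day 3, red BAT and dark blue control; Ankrd1, at 2092% or more, is left out. Right of the dashed line stand Pdgfra, Mfap5, Dcn and Lum, a part of the 10 FAP markers. Pdgfra lay at 0.631% to 2.08%, below the members at day 7. Gsn, not shown, was the highest FAP marker in every group, at 6.42% to 10.3%.

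Whether the cell type difference itself moved with day was tested within control muscle. Satellite cells minus FAPs, at day 7 minus day 3, passed for 8 of 9 members, 7 higher and Ankrd1 lower, where 23.8% of all genes passed (15.4% higher and 8.39% lower). The differences were 2.90 ± 0.17 for Tgfbr3 (adjusted p = 2.97e-05), 2.75 ± 0.22 for Tgfb3 (adjusted p = 8.26e-05), 2.49 ± 0.37 for Ccn2 (adjusted p = 0.00159), 1.71 ± 0.21 for Tgfb2 (adjusted p = 0.000713) and -3.65 ± 0.22 for Ankrd1 (adjusted p = 3.13e-05). Ccn5 differed by 3.22 ± 0.75 (adjusted p = 0.013), or by 2.48 without day 7 replicate 4 and 2.51 without the mouse block. Tgfb1 differed by 1.38 ± 0.36 (adjusted p = 0.0212), a call that was lost without the day 3 mouse of satellite cell replicate 4 (1.29, adjusted p = 0.0612) or of satellite cell replicate 2 (1.29, adjusted p = 0.0673). For Ccn4 the difference of 0.84 ± 0.24 (adjusted p = 0.0309) was lost without either of these mice (0.86 and 0.71), the day 3 mouse of satellite cell replicate 1 (0.80) or day 7 replicate 1 or 4 (0.60 and 0.74), with RLE scaling (0.75, adjusted p = 0.0509) and without the mouse block (0.81, adjusted p = 0.0774). Ccn1 (0.61 ± 0.24, adjusted p = 0.0895) passed without day 7 replicate 3 (0.80, adjusted p = 0.012). The median of the members was 1.71 and that of all genes 0.123.

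BAT muscle was compared with control muscle of the same mice to ask what the graft alters. No member passed in satellite cells at day 7 (all genes 0.0178%) or day 3 (0%), or in FAPs at day 7 (0%) or day 3 (0.0188%), and the members with an unadjusted p under 0.05 numbered 3, 0, 0 and 1. Over all genes, 1261 (7.48%), 472 (3.02%), 783 (4.89%) and 730 (4.58%) had an unadjusted p under 0.05 in these comparisons. Groups did not overlap for 0, 0, 0 and 1 of the 9 members in the same order, where 1.02%, 1.2%, 0.593% and 2.08% of all genes did not. The members' median differences were -0.20, 0.06, 0.17 and -0.04. DESeq2 called 1 member, Ccn2 in FAPs at day 3.

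Ccn2 in FAPs at day 3 was the member that stood out. FAPs with BAT had 272, 326, 349 and 260 CPM and control FAPs of the same mice had 454, 524, 434 and 428 CPM. All 4 BAT libraries were below all 4 control libraries, as 1.35% of all genes were in that comparison, and the level was lower with BAT in 4 of 4 mice. Ccn1 (-0.24 ± 0.11) and Tgfb3 (-0.15 ± 0.09) were also lower in all 4 mice there, as were 9.59% of all genes, and did not pass. The difference was -0.58 ± 0.10 (1.5-fold lower, unadjusted p = 0.00041), with an adjusted p of 0.462 in edgeR's test. It passed with DESeq2 (-0.58, adjusted p = 0.000351), without the filter on low counts (-0.58, adjusted p = 0.0194) and without replicate 1, the pair with the macrophage-rich library (-0.56, adjusted p = 0.0375). Without replicate 2, 3 or 4 the adjusted p was 0.975, 0.999 and 0.938 at differences of -0.54, -0.67 and -0.55, and without the mouse block it was 0.999. The largest overlap of an exon of Ccn2 with an exon of Gm15270, on the opposite strand, was 347 bases, and Gm15270 had at most 4.66 CPM. At day 7 FAPs had 300, 292, 202 and 373 CPM with BAT and 234, 326, 221 and 343 CPM in control, a difference of 0.07 ± 0.11.

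In satellite cells at day 7, Tgfb3 (-0.28 ± 0.09, unadjusted p = 0.013) and Tgfbr3 (-0.27 ± 0.11, unadjusted p = 0.029) were lower with BAT in 4 of 4 mice, and Ankrd1 (0.34 ± 0.13, unadjusted p = 0.0223) was higher in 3 of 4 mice. Ccn4 (-0.16 ± 0.10) was also lower in 4 of 4 mice, as were 9.29% of all genes in that comparison. The edgeR adjusted p values of Tgfb3, Tgfbr3 and Ankrd1 were 0.627, 0.635 and 0.632, and all groups overlapped. Ankrd1 had 212, 227, 242 and 203 CPM with BAT and 218, 141, 220 and 145 CPM in control, with the gap in replicates 2 and 4. In the same comparison 3 of 10 mature myofibre markers passed as lower with BAT, and their sum was 1041 to 3088 CPM with BAT and 1985 to 4850 CPM in control.

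In satellite cells at day 3 the SE of the BAT difference was 0.56 for Ccn2, 0.58 for Ccn5 and 0.34 for Tgfb3, and 0.10 for Ccn1 and Ankrd1. In FAPs at day 3 it was 0.67 for Ankrd1, with the macrophage-rich library included. Single mice spanned -1.67 to 1.40 for Ccn2 and -1.65 to 1.63 for Ccn5, as log2 differences of CPM with 1 added. Among FAPs at day 7 the differences were -0.13 for Tgfbr3, -0.06 for Tgfb2, 0.04 for Tgfb1, 0.07 for Ccn2, 0.17 for Tgfb3 and for Ccn4, 0.24 for Ccn1, 0.30 for Ankrd1 and 0.42 for Ccn5, and none passed.

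**Figure D4:**
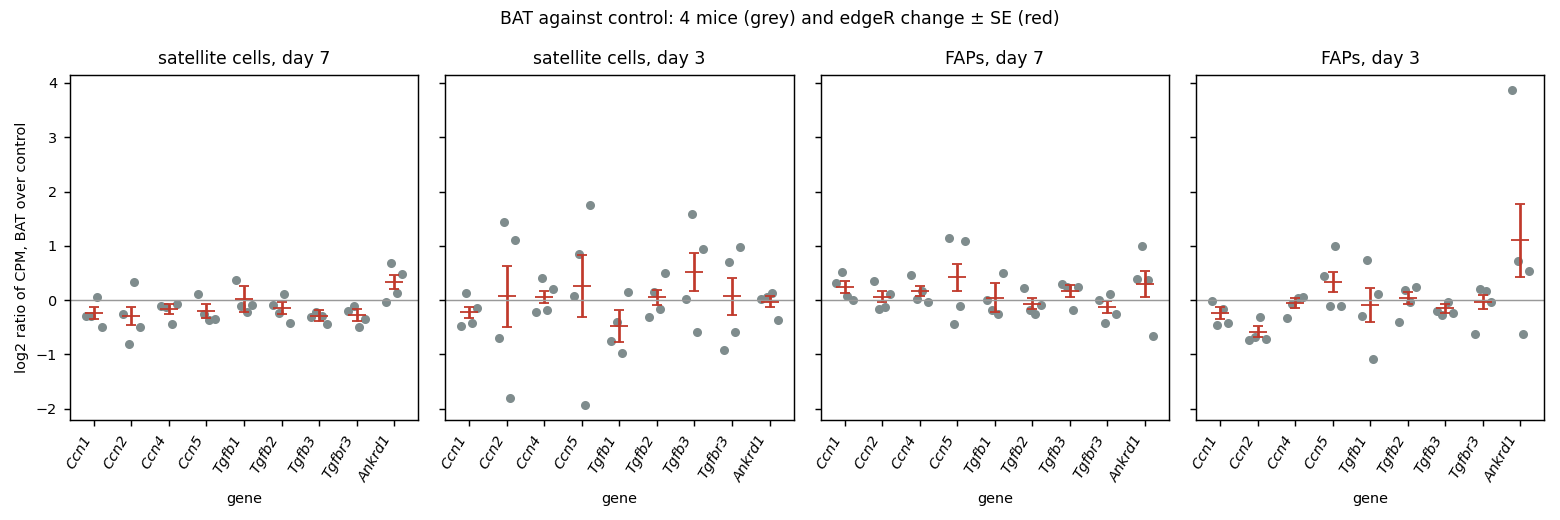
Grey points are the log2 ratios of CPM of BAT over control muscle in each of 4 mice (vertical axis, nothing added to the CPM) for each gene (horizontal axis), and red bars the edgeR change ± SE. Ccn2 in FAPs at day 3 lay below 0 in all 4 mice (edgeR change -0.58), while single mice spread widely for Ccn2 and Ccn5 in satellite cells at day 3.

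Differences of the BAT effect were tested directly. None of the 9 members passed for day 7 minus day 3 in satellite cells or in FAPs (all genes 0% in each), or for satellite cells minus FAPs at day 7 (0%) or day 3 (0.0229%). DESeq2 also called no member in these 4 tests, while 1, 3, 3 and 0 members had an unadjusted p under 0.05, where 5.12%, 3.35%, 6.68% and 3.15% of all genes had one. In FAPs the BAT effect on Ccn2 was higher at day 7 by 0.66 ± 0.15 (unadjusted p = 0.000851, adjusted p = 1), and without the filter on low counts this passed (0.65, adjusted p = 0.0208). The effect on Ccn1 in FAPs was higher at day 7 by 0.49 ± 0.16 (unadjusted p = 0.0101, adjusted p = 1). At day 7 the effect in satellite cells minus that in FAPs was -0.46 ± 0.14 for Tgfb3, -0.49 ± 0.16 for Ccn1 and -0.34 ± 0.14 for Ccn4 (adjusted p = 0.698, 0.701 and 0.725).

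Other genes of the pathway were read from lists chosen by function, some genes standing in more than 1 list. The lists held 16 TGF-beta receptor and SMAD genes, 19 genes of latent TGF-beta binding and activation and 19 TGF-beta induced genes. A further 26 YAP, TAZ and TEAD genes and 13 activin and myostatin genes were listed. For BAT against control no tested gene of these lists passed edgeR's test in any cell type or day. The alternative fits were not read for them. The median change of the TGF-beta induced genes with BAT was -0.08 in satellite cells at day 7, 0.52 in satellite cells at day 3, 0.07 in FAPs at day 7 and 0.04 in FAPs at day 3, beside all-gene medians of at most 0.014 in size. At day 3 in satellite cells the FAP and tenocyte markers had medians of 1.23 and 1.29, with none passing.

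With day, genes of every list passed in control satellite cells, where 59.4% of all genes passed (29.7% higher and 29.8% lower). Of the receptor and SMAD genes 8 of 16 rose and none fell, a share called in either direction below that of all genes, with Eng (2.81 ± 0.56) and Acvrl1 (2.74 ± 0.66), a co-receptor and a type I receptor of endothelial and mesenchymal cells, changing most. Of the latent complex genes 12 of 19 rose, among them Ltbp4 (3.84 ± 0.34), which tethers latent TGF-beta to matrix fibres, Bgn (3.83 ± 0.67), a matrix proteoglycan, and Lrrc32 (3.50 ± 0.92), which holds latent TGF-beta at the cell surface. Itgb6, a subunit of an integrin that activates latent TGF-beta, fell by 1.80 ± 0.29, and Ltbp1 fell by 0.86 ± 0.20. Of the TGF-beta induced genes 13 of 19 rose, led by Col1a1 (4.16 ± 1.06), Postn (3.88 ± 0.52) and Tagln (3.13 ± 0.56), and Timp1 fell by 0.58 ± 0.16. Col1a1 and Postn are matrix genes of fibroblasts and Tagln is a smooth muscle gene. In the same libraries 8 of 10 tenocyte, 9 of 10 pericyte and smooth muscle and 2 of 10 FAP markers passed as higher. The median changes of these marker lists were 2.93, 3.31 and 1.49, and 1 tenocyte marker was lower. The part of these cells in the changes of the pathway genes was not tested. Tnc and Acta2 stand in the induced list as well as in the tenocyte and smooth muscle lists. Likewise Fmod and Dcn stand in the latent complex list as well as in the tenocyte and FAP lists.

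The YAP, TAZ and TEAD list of control satellite cells had 11 of 26 genes higher at day 7, led by Fjx1 (5.64 ± 0.90), Crim1 (2.83 ± 0.44) and Nt5e (2.46 ± 0.41), and 5 lower, a share close to that of all genes. Tead4, a TEAD factor of myoblasts, had a change of -2.05 ± 0.27, Axl, a receptor kinase, -1.08 ± 0.22 and Tead2 -0.71 ± 0.14, in the same direction as Ankrd1 and against Ccn1 and Ccn2. Activin and myostatin genes had 7 of 11 tested higher, among them Inhbb (3.20 ± 0.34), an activin subunit, Fstl1 (3.18 ± 0.36) and Mstn (3.18 ± 0.51), which encodes myostatin. BAT satellite cells had 8 of 16, 8 of 19, 7 of 19, 11 of 25 and 7 of 11 tested genes higher in these lists, and 0, 2, 1, 5 and 0 lower, beside 28.5% and 24.4% of all genes. Median changes in the order of the lists were 0.43, 1.90, 1.99, 0.24 and 0.90 in control and 0.50, 1.13, 0.82, 0.39 and 1.09 in BAT satellite cells.

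Fewer genes of these lists passed in FAPs, as did fewer of all genes (23% in control, 11.5% higher and 11.4% lower). In control FAPs 2 of 16 receptor and SMAD genes rose, Tgfbr2 (0.72 ± 0.19) and Tgfbr1 (0.52 ± 0.13), the signalling receptors themselves. Of the latent complex genes 5 of 19 rose, with Fmod (3.01 ± 0.71), which is also in the tenocyte list, and Ltbp4 (2.61 ± 0.51) ahead. Ltbp2 fell by 0.98 ± 0.27. Of the TGF-beta induced genes 5 of 19 rose, including Col1a1 (1.68 ± 0.43) and Itga11 (1.20 ± 0.20), and tenocyte and FAP markers were higher in the same libraries as given above. Nt5e (2.68 ± 0.31) and Mstn (3.60 ± 0.51) were highest among the YAP and the activin genes. Of the remaining CCN genes, Ccn3 rose in control FAPs by 2.22 ± 0.37 (adjusted p = 0.00388), averaging 94.8 ± 53.2 CPM at day 7 and 21.7 ± 3.95 CPM at day 3, and Ccn6 was too low to test.

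Between cell types in control muscle, the TGF-beta induced genes were lower in satellite cells than in FAPs for 16 of 19 at day 7 and 19 of 19 at day 3, where 22.6% and 35.9% of all genes were lower. At day 7 Acta2 (3.18 ± 0.34) and Tagln (1.89 ± 0.30), both smooth muscle genes, were higher in satellite cells. Itgb6 was higher in satellite cells on both days (3.85 ± 0.57 at day 7 and 5.27 ± 0.23 at day 3). Tead4 averaged 3.33 ± 0.921 CPM at day 7 and 10.7 ± 2.89 CPM at day 3 in control satellite cells, and in control FAPs, at 0.0616 and 0.0373 CPM, it was under the floor of 3 counts, so no fold is given.

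Genes with the most similar pattern were sought among 11142 genes with a mean of at least 5 CPM, by Pearson's r of log2 CPM with 1 added over the 32 libraries, which share cell type, day and mouse. Tgfb1 was below that level. The closest gene to Tgfb3 was Oasl2 (r = 0.984), to Tgfbr3 Bmp1 (0.986), to Tgfb2 Jag1 (0.951), to Ccn1 Mapk7 (0.921), to Ccn2 Septin5 (0.975), to Ccn4 Pappa (0.965), to Ccn5 Il4ra (0.950) and to Ankrd1 Slc38a1 (0.987). Among the members, Tgfb3 and Tgfbr3 had r = 0.970, and Ccn2 and Ankrd1 r = -0.923. Once each group's mean was taken off, the closest genes were Pamr1 for Tgfb3 (0.867), Fndc3b for Tgfbr3 (0.846), Olfm2 for Tgfb2 (0.793), Arhgef10 for Ccn1 (0.893), Vasn for Ccn2 (0.857), Cnn2 for Ccn4 (0.779), Bcat1 for Ccn5 (0.861) and Gal for Ankrd1 (0.900). Within groups Ccn2 and Tgfb3 still had r = 0.787, Tgfb3 and Tgfbr3 had 0.470, and Ccn2 and Ankrd1 had -0.287.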

How the data were processed

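Libraries were made from sorted-cell RNA by a kit for small inputs, per the labels. For each day the authors deposited 1 table of expected counts per gene, named as such from its values. Per the submitters' processing notes DRAGEN and mm10 were used. Versions, annotation and strand use: not given in the sources used here. Of 55774 entries in each table, 287 repeats with identical values were dropped, which left 55487 genes. Expected counts were rounded, a step that changed library totals by at most 0.00034%. Levels are CPM of the column totals, which were 19776809 to 46378988 counts.

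Changes were tested with edgeR 4.0.16 (TMM, filterByExpr with a minimum count of 10 and a minimum total of 15, quasi-likelihood F test, R 4.3.3), with adjusted p from the Benjamini-Hochberg method over all genes tested and SE obtained by dividing the size of the change by the root of F. Each of the 17 comparisons used the libraries of its own groups. The mouse was a block in all but day 7 against day 3, where the mice differ. In the tests of BAT effects between cell types, each mouse had a separate block for satellite cells and FAPs. Mouse codes in the labels pair the libraries; the deviations of paired BAT and control libraries from their group means correlated at a mean r of 0.523 and 0.0743 in satellite cells at day 7 and day 3, and 0.699 and 0.224 in FAPs. Of day 3, 4 libraries without a code were taken as 1 mouse, which is an inference. Each group has a library without a number, called replicate 4. No libraries of a group agreed within counting noise (chi-square per degree of freedom at least 17.1). The steps were tested on simulated counts. Alternatives were DESeq2 1.42.0, RLE scaling, no low-count filter, no mouse block, leaving out each replicate and leaving out the libraries rich in macrophage transcripts.

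The members, pathway lists and tests were chosen with earlier results of these data known. All 9 members were eligible by name in every comparison, and from each pathway list up to 3 called genes per direction with the largest change were eligible. Coordinates and transcript lengths follow GENCODE M21 (mm10). Exons of Ccn2, Tgfb2, Tgfb3 and Tgfbr3 overlap those of other genes, whose levels were at most 4.66, 0.136, 0.268 and 2.88 CPM.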

Additional observations from a re-analysis of the deposited data

Results flagged for a closer look

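Of 72 groups of 4 libraries, 9 genes in 8 groups, 2 held a library far from the rest by Dixon's criterion at 95%, and chance gives about 1 in 20. Tgfbr3 in satellite cells with BAT at day 7 had 38.9 CPM in replicate 3, against 58.3 to 61.9 CPM in the others; this is the mouse with Xist transcripts, and its control muscle had the lowest value of its group too (54.9 CPM). Ankrd1 in FAPs with BAT at day 3 had 34.7 CPM in replicate 1, against 1.82 to 5.85 CPM in the others; this is the library with the highest sum of macrophage markers.

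For 8 members the difference between satellite cells and FAPs in control muscle changed with day, by edgeR's test of that difference. The log2 differences of day 7 minus day 3 were 2.49 for Ccn2, 0.84 for Ccn4, 3.22 for Ccn5, 1.38 for Tgfb1, 1.71 for Tgfb2, 2.75 for Tgfb3, 2.90 for Tgfbr3 and -3.65 for Ankrd1.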

How the results depend on the processing

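Of 58 calls on members, DESeq2 kept 58, RLE scaling 57, dropping the low-count filter 56 and leaving out the macrophage-rich libraries 42 of 43. Without the replicate block 36 of 38 were kept. Of refits that left out a replicate, 311 of 344 kept the call. For BAT in FAPs at day 3 the number of members called was 0, or 1 with DESeq2, without the low-count filter and without the macrophage-rich libraries, and 0 to 1 over the omissions of a replicate. Day 7 against day 3 gave 1 to 2 in control FAPs over such omissions and 0 to 3 in BAT FAPs, where it was also 1 without the low-count filter. The change of the BAT effect with day in FAPs gave 1 member without that filter. Each change whose direction reversed was uncalled with all libraries. Without the macrophage-rich libraries, BAT against control at day 3 gave 0.0497 for Ankrd1, -0.0479 for Tgfbr3 and -0.0729 for Tgfb2 in satellite cells and 0.0211 for Ccn4 and 0.12 for Tgfbr3 in FAPs, and day 7 against day 3 in BAT FAPs gave -0.0187 for Ccn4 and 1.53 for Ankrd1. The unpaired fit, with no replicate block, gave -0.0514 for Ccn5 with BAT in FAPs at day 7. The cause was not tested. No paired analysis was possible for day 7 against day 3 because the mice differ.

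Leaving out each replicate in turn gave these ranges where a sign changed. BAT against control in satellite cells at day 3 gave -0.44 to 0.65 for Ccn2, -0.0794 to 0.0847 for Ankrd1, -0.26 to 0.90 for Ccn5, -0.24 to 0.36 for Tgfbr3, -0.0941 to 0.14 for Tgfb2 and -0.0389 to 0.14 for Ccn4, and at day 7 -0.12 to 0.0806 for Tgfb1. In FAPs at day 3 it gave -0.0902 to 0.0211 for Ccn4, -0.11 to 0.12 for Tgfbr3, -0.0499 to 0.14 for Tgfb2 and -0.35 to 0.22 for Tgfb1, and at day 7 -0.14 to 0.12 for Tgfb1, -0.0227 to 0.14 for Ccn2 and -0.15 to 0.0028 for Tgfb2. Satellite cells against FAPs at day 7 gave -0.25 to 0.0430 for Tgfb1, -0.23 to 0.13 for Tgfb2 and -0.31 to 0.0750 for Ccn1 in control muscle, and -0.32 to 0.18 for Tgfb1 and -0.30 to 0.0270 for Tgfb2 with BAT. Day 7 against day 3 gave -0.11 to 0.23 for Tgfb1 and -0.25 to 0.13 for Ccn4 in control FAPs, and -0.0526 to 0.24 for Ccn4, -0.42 to 1.53 for Ankrd1, -0.12 to 0.10 for Ccn2 and -0.0880 to 0.33 for Tgfb1 in BAT FAPs.

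Over all genes, BAT against control called 3 in satellite cells at day 7 (39 with DESeq2, 206 without the filter, 0 without the block, 0 to 14 over the omissions), 0 at day 3 (1 without the macrophage-rich libraries), 0 in FAPs at day 7 (26, 145, and 0 to 1 over the omissions) and 3 at day 3 (40, 63, 0 without the block, 27 without the macrophage-rich libraries, 0 to 27 over the omissions). Changes of the BAT effect with day called 0 in satellite cells (7 with DESeq2, 1 without the filter, 1 without the macrophage-rich libraries) and 0 in FAPs (1 and 100, and 0 to 1 over the omissions), and its differences between cell types 0 at day 7 (10 and 183) and 4 at day 3 (12, 15, 0 without the block, 0 to 12 over the omissions). Day 7 against day 3 called 3711 genes in control FAPs and 3686 in BAT FAPs, with 1980 to 4626 and 1888 to 4696 over the omissions. Depth limits Tgfb1 most of the members, at 0.506 to 4.80 CPM against a floor of 0.065 to 0.152 CPM.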
